A study of Mus musculus with 8 samples.

Results

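The genes described here encode the proteins of the mitochondrial ribosome, taken as every array probe whose symbol in the deposited table begins with Mrpl or Mrps followed by a digit. These were 125 of 45281 probes, and they stand for 73 genes, 45 with an Mrpl symbol and 28 with an Mrps symbol. A probe was tested where it was detected above the negative control beads (detection p under 0.05) on 4 or more arrays of the 8. That left 100 probes of 67 genes (40 Mrpl and 27 Mrps) among the 16487 probes and 11687 genes tested in all.

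The mitochondrial ribosome translates the few messages that are still encoded in mitochondrial DNA, all of them subunits of the respiratory chain and of ATP synthase. Its own proteins are encoded in the nucleus, made in the cytosol and imported, and they assemble with mitochondrial ribosomal RNA into a large subunit, which joins amino acids, and a small subunit, which reads the message. Mrpl symbols were given to proteins of the large subunit and Mrps symbols to those of the small subunit, although in structures of the human ribosome the products of Mrps30 and Mrps18a sit in the large one. Liver is rich in mitochondria, which burn the fatty acids that a fat-rich diet brings in.

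Liver RNA of 8 male C57BL/6J mice was hybridised to Illumina single-colour bead arrays, 1 array a mouse. From 6 weeks of age all mice ate a diet in which fat supplied 60% of calories, and after 14 weeks of it an antisense oligonucleotide (ASO), a synthetic strand that pairs with a chosen RNA, was injected intraperitoneally for 3 weeks, at 25 mg/kg on 2 days of each week. In 4 mice the ASO was directed against Mogat1, which encodes an enzyme that turns monoacylglycerol into diacylglycerol, and in the 4 control mice it had a scrambled sequence. The labels list an age of 25 weeks for each mouse, later than diet and dosing together reach. Neither group was without high-fat feeding or without an ASO, so the comparison is between 2 oligonucleotides in mice on the same diet.

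The array could not show the lowering of the target itself. The Mogat1 probe was detected on no array, control arrays included, with detection p-values of 0.814 to 0.994. An undetected probe does not show an absent transcript, since the Alb probe was also detected on no array of these livers. The arrays had median signals of 84.3 to 112 and 15788 to 16944 detected probes, and no array repeated another (rank correlations of 0.910 to 0.925 between arrays). Over all probes tested, Mogat1 ASO replicate 1 stood apart from its group. On the first principal component that array read 8.36, against 23.6 to 29.2 for the other Mogat1 ASO arrays and -25.8 to -16.7 for the controls. Calls of members that were gained or lost without that array are given beside the results.

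The promoters of 4 members are shown, because these genes had the largest differences between the groups in each direction. Each is 300 bases long, from 250 bases before to 50 bases after the annotated start, read 5′ to 3′ on the strand of the gene, from RefSeq sequence of the mouse build GRCm38.p6. Capitals mark 3 searched motifs, on either strand: CCGGAAG, bound by ETS-family factors such as the nuclear respiratory factor GABP, CGCATGC, the core of the site of nuclear respiratory factor 1, and AAGATGG, the core of the YY1 site. These factors are known regulators of nuclear genes for mitochondrial proteins.
Mrpl52, chr14:54426659-54426958, plus strand: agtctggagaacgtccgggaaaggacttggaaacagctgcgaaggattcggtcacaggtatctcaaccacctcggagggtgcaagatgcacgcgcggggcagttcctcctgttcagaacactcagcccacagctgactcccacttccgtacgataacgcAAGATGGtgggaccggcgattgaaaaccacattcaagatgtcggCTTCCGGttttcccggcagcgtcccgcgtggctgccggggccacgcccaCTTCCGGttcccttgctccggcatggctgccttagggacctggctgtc
Mrps22, chr9:98601630-98601929, minus strand: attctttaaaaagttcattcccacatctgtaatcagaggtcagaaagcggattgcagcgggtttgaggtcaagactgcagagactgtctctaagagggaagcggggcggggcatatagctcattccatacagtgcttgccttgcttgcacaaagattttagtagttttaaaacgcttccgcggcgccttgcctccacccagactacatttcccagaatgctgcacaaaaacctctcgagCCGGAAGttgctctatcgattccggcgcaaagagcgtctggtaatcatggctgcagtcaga
Mrpl9, chr3:94443086-94443385, plus strand: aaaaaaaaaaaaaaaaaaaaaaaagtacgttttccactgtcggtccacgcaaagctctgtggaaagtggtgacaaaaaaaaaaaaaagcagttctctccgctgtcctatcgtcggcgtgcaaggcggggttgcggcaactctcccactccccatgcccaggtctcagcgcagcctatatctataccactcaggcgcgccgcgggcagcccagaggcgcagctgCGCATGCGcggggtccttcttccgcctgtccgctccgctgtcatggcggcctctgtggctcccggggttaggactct
Mrps23, chr11:88204138-88204437, plus strand: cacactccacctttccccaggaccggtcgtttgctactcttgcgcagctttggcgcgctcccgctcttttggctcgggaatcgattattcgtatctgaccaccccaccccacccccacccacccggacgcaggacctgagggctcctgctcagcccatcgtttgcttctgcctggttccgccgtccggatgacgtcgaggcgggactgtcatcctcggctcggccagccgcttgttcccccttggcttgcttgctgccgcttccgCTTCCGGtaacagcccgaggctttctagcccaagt

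The Mrpl52 window held 2 matches to the ETS motif and 1 to the YY1 motif, and the Mrps22 and Mrps23 windows held 1 ETS match each. The Mrpl9 window held a single palindromic run that matches the NRF1 core on both strands. RefSeq windows were given for 64 of the 73 genes, 70 windows in all because some genes have several starts. Of these, 34.3% held the ETS motif, against 8.86% of all 32851 windows of that length. The NRF1 core was in 11.4% of the windows, against 3.58% of all, and the YY1 motif in 17.1%, against 6.34%. At least 1 of the 3 motifs was present in 35 windows, or 50%, against 17.3% of all windows. The member windows were also richer in G and C, with a median GC content of 58.5% against 52.7% for all windows, and how far base composition accounts for the motif shares was not tested. No base of these windows lay in matches to 2 different motifs. A match describes the letters only and is not a site of binding.

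In the livers of Mogat1 ASO mice the mitochondrial ribosomal protein genes as a whole were close to their control levels. Of the 67 genes tested, 1 rose (Mrps23) and 2 fell (Mrpl52 and Mrps22) past an adjusted p of 0.05, which is 4.48% of them. Of all genes tested 13.3% passed, 7.14% higher and 6.13% lower. No member differed by as much as 1.5-fold, whereas 8.15% of all genes did. The median difference, Mogat1 ASO minus control, was -0.0094 on the log2 scale, beside -0.0035 over all genes, and 33 genes had a positive and 34 a negative difference. With arrays scaled to the same median in place of quantile normalisation the median was -0.064, beside -0.0059 over all genes. Under that scaling 21 members had a positive and 46 a negative difference.

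The spread of the differences was narrow. The middle 50% of members lay between -0.09 and 0.09 on the log2 scale, against -0.17 and 0.17 for all genes, and the largest differences were -0.50 (Mrpl52) and 0.40 (Mrpl9). Of the 67 genes, 61 (91%) differed by less than 0.25, against 65.1% of all genes. The narrow spread was not particular to the members. In the related lists described below this share ran from 53.2% (cytosolic ribosomal proteins) to 91.7% (mitochondrial DNA and transcription). It was 85.5% for the respiratory chain and ATP synthase, 85.7% for ribosome assembly and 62.5% for translation factors. The 95% confidence interval of the difference stayed within 1.5-fold in either direction for 63 members (94%), and within 2-fold for every one of the 67, against 68.3% and 92.7% of all genes. In the related lists the share within 1.5-fold ran from 71.4% (regulators of mitochondrial biogenesis) to 100% (mitochondrial DNA and transcription). It was 92.8% for the respiratory chain and ATP synthase. The members also varied less from mouse to mouse than all genes, with a median standard deviation (SD) within a group of 0.13 against 0.18. The median standard error (SE) was 0.0986 for members, 0.1287 for all genes and 0.0853 for the respiratory chain and ATP synthase. The part of probe brightness was not tested. In bulk liver RNA, fewer cells of a type and less RNA per cell cannot be told apart, and this holds for all values given here.

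**Figure D1:**
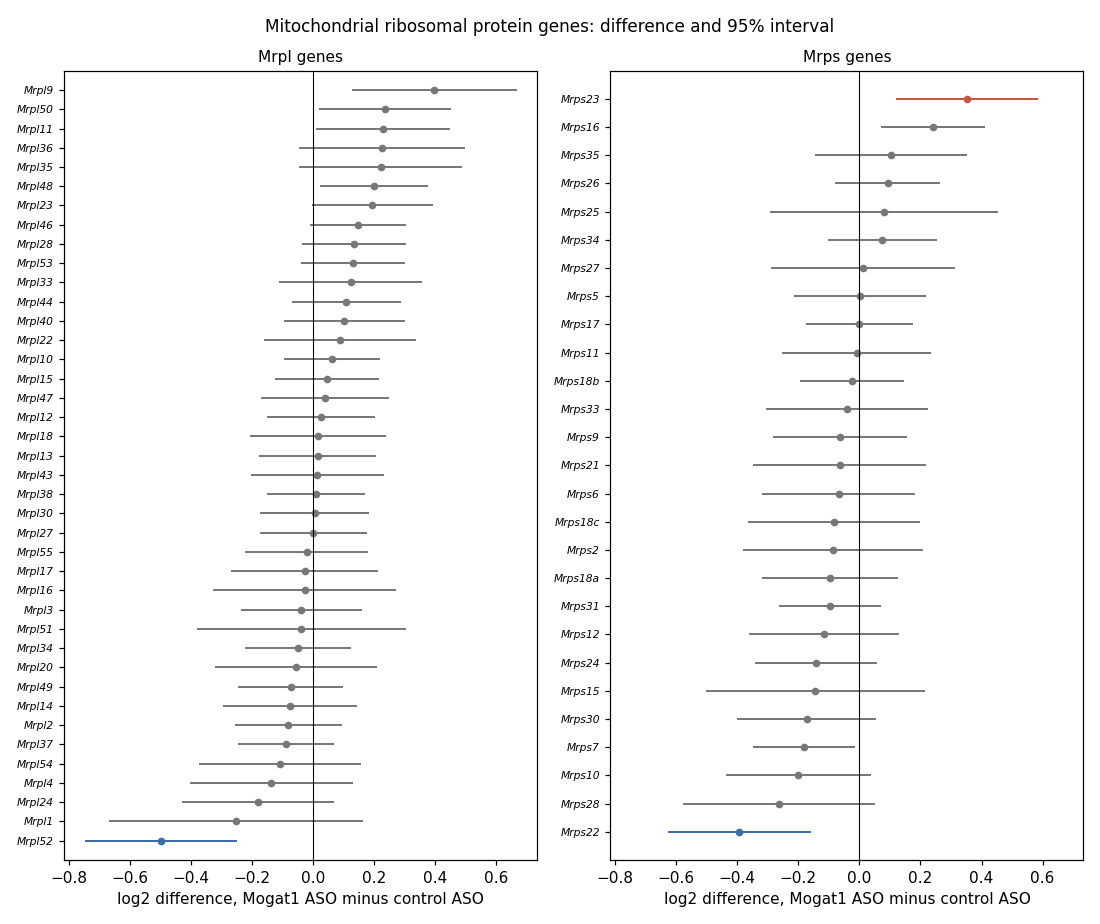
Difference in normalised log2 level (Mogat1 ASO minus control ASO, points) with its 95% confidence interval (bars) for the 67 tested genes, each by its brightest tested probe, with Mrpl genes on the left and Mrps genes on the right. Mrps23 (red) rose and Mrpl52 and Mrps22 (blue) fell past the threshold, and the other genes (grey) did not pass.

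Between the 2 name groups, 24 Mrpl genes had a positive and 16 a negative difference (median 0.0145), while 9 Mrps genes had a positive and 18 a negative one (median -0.06). Of the 40 Mrpl genes 1 passed the threshold (2.5%), and of the 27 Mrps genes 2 did (7.41%). With a gene's probes averaged, 12 Mrps genes were positive and 15 negative (median -0.064), and 23 Mrpl genes were positive and 17 negative (0.0177). Counted by tested probe, 19 Mrps probes were positive and 22 negative (median -0.0166), and 35 Mrpl probes were positive and 24 negative (0.014). Whether the 2 groups differ was not tested. Under the same-median scaling the Mrpl median turned negative, at -0.0437 with 15 positive and 25 negative genes, and the Mrps median was -0.0915.

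Among the Mrpl genes, Mrpl52, a protein that bacterial ribosomes lack, had the largest difference. Its level (probe ILMN_2601865, log2) was 9.32, 9.48, 9.31 and 9.36 on the control arrays and 9.09, 8.99, 8.74 and 8.65 on the Mogat1 ASO arrays. All 4 Mogat1 ASO mice were below every control mouse, and the spread was wider in the treated group (SD 0.21 against 0.08). Its fall was 1.41-fold, or -0.50 on the log2 scale (SE 0.11, n = 4 each, limma adjusted p = 0.0152). It still passed when any 1 array was left out, except control replicate 2 (adjusted p = 0.0535) or Mogat1 ASO replicate 3 (adjusted p = 0.0532).

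Mrpl9, the counterpart of bacterial ribosomal protein L9, had the largest positive difference. On the control arrays its brighter probe read 10.59, 10.19, 10.32 and 10.35, and on the Mogat1 ASO arrays 10.48, 10.71, 10.95 and 10.91. Mogat1 ASO replicate 1 lay below control replicate 1, and the other 3 treated mice lay above all controls. The difference was 0.40 (SE 0.12, adjusted p = 0.0538), just short of the threshold. The dimmer Mrpl9 probe gave a like difference of 0.36 (SE 0.10) and did pass (adjusted p = 0.0388). Without Mogat1 ASO replicate 1 the brighter probe passed too, with a difference of 0.49 (adjusted p = 0.0110), as it did without control replicate 1 (0.47, adjusted p = 0.0303). Neither probe passed when any of the control or Mogat1 ASO replicates 2, 3 and 4 was left out. The adjusted p of the brighter probe then rose to as much as 0.151. Neither passed with same-median scaling, without the filter on dim probes, without a variance trend, or with the replicate number as a block. The brighter probe did pass with robust variance estimation (adjusted p = 0.0462) and with array weights (adjusted p = 0.00549). Mrpl9 also passed as a gene with its probes averaged.

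Mrpl50, another protein without a bacterial counterpart, read 10.73, 11.14, 11.04 and 11.01 in controls and 11.32, 11.13, 11.23 and 11.18 in Mogat1 ASO mice, a difference of 0.24 (adjusted p = 0.139). The groups overlapped through control replicate 2. Mrpl1, the counterpart of the L1 protein that forms a mobile stalk beside the exit site, read 10.17, 10.49, 10.63 and 10.47 in controls and 10.65, 10.40, 10.05 and 9.65 in Mogat1 ASO mice. These 4 treated values spanned the whole range of the controls and beyond it on both sides (SD 0.43), so the difference of -0.25 had an interval of -0.67 to 0.16 (adjusted p = 0.420). Mrpl48, Mrpl46 and Mrpl53, all of them large-subunit proteins, were higher in every Mogat1 ASO mouse than in any control, by 0.20, 0.15 and 0.13, but none passed the threshold (adjusted p = 0.125, 0.196 and 0.298). For Mrpl48 this held for 2 of 3 tested probes, and the third differed by -0.0128 with overlapping groups (adjusted p = 0.946). Mrpl11, whose bacterial counterpart lies at the base of the stalk that receives translation factors, differed by 0.23 (adjusted p = 0.153).

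Among the Mrps genes, Mrps22 had the largest difference. Its product is specific to mitochondrial ribosomes, and in humans mutations of it cause a deficiency of the respiratory chain. Mrps22 (probe ILMN_2787396) read 10.25, 10.23, 10.35 and 10.29 on the control arrays and 10.19, 9.83, 9.76 and 9.77 on the Mogat1 ASO arrays. The groups did not overlap, but Mogat1 ASO replicate 1 lay just below the lowest control and well above the other 3 treated mice. Its fall was 1.31-fold, or -0.39 on the log2 scale (SE 0.105, adjusted p = 0.0324), and without Mogat1 ASO replicate 1 the difference was -0.49 (adjusted p = 0.00243). It missed the threshold when any of the control replicates 2, 3 and 4 or the Mogat1 ASO replicates 2, 3 and 4 was left out (adjusted p of 0.0690 to 0.0986), and also without the filter on dim probes (adjusted p = 0.0683) or without a variance trend (adjusted p = 0.0503). A second Mrps22 probe was detected on no array.

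Mrps23, likewise specific to mitochondrial ribosomes, was the member that rose. Its brighter probe (ILMN_2762361) read 10.56, 10.42, 10.35 and 10.42 in controls and 10.54, 10.74, 10.98 and 10.90 in Mogat1 ASO mice. Mogat1 ASO replicate 1 fell within the range of the controls and the other 3 lay above it. The difference was 0.35, or 1.28-fold (SE 0.10, adjusted p = 0.0493), and without Mogat1 ASO replicate 1 it was 0.44 (adjusted p = 0.00859). The call rested on 1 probe, since the dimmer probe differed by 0.12 (SE 0.13, adjusted p = 0.602). The call was lost without any of the control replicates 2, 3 and 4 or the Mogat1 ASO replicates 2, 3 and 4 (adjusted p of 0.0793 to 0.140). It was also lost under 7 of the 11 other ways of processing, among them no background correction (adjusted p = 0.0511) and arrays scaled to the same median (adjusted p = 0.288).

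Mrps16, the counterpart of bacterial protein S16, read 10.24, 10.33, 10.41 and 10.27 in controls and 10.58, 10.50, 10.57 and 10.57 in Mogat1 ASO mice. All treated mice were above all controls, by 0.24 on average (SE 0.08), and the adjusted p was 0.0613. Mrps16 passed with array weights (adjusted p = 0.0451) and in the fit with a gene's probes averaged. Mrps28 read 10.25, 10.35, 10.15 and 10.37 in controls and 10.32, 10.23, 9.85 and 9.65 in Mogat1 ASO mice, a difference of -0.26 (adjusted p = 0.256). Mogat1 ASO replicates 3 and 4 were below every control there, while replicates 1 and 2 were within their range. Mrps30, whose product sits in the large subunit, differed by -0.17 (adjusted p = 0.300) and passed without Mogat1 ASO replicate 1 (-0.27, adjusted p = 0.0359). Mrps7, a counterpart of bacterial protein S7, was lower in every Mogat1 ASO mouse than in any control, by 0.18 (SD 0.08 and 0.06 in the 2 groups, adjusted p = 0.135). That held for the brighter of 2 probes, and the other differed by 0.0057 (SE 0.09) with overlapping groups and did not pass. In all, the groups did not overlap for 4 members that were higher and 3 that were lower among the 67, while this held for 10.3% and 8.81% of all genes tested, 19.1% together.

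**Figure D2:**
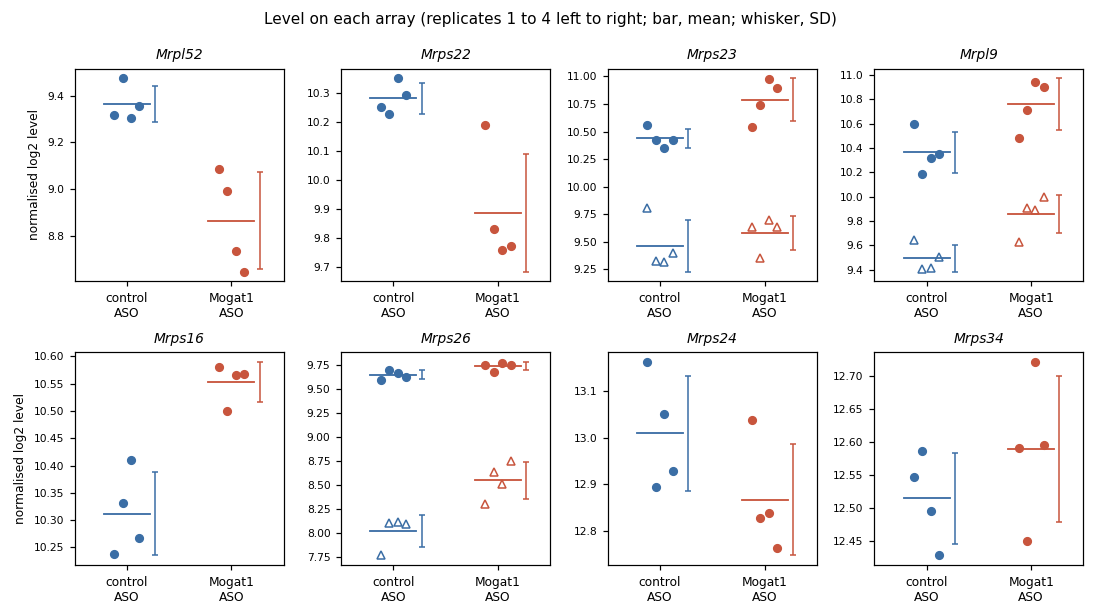
Normalised log2 level on each array for 8 genes, with control ASO arrays in blue and Mogat1 ASO arrays in red, in the order of their replicate numbers. Filled points are the brightest tested probe and open triangles a second probe, each with a bar at the group mean and a whisker of 1 SD (n = 4), and the axes do not start at 0. Mrpl52, Mrps22 and Mrps16 show no overlap between the groups, and the lowest Mogat1 ASO value of Mrps23 and Mrpl9 (replicate 1) lies within the controls.

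The 6 members with the brightest probes were measured closely, and none passed the threshold. Mrps24, the counterpart of bacterial protein S3, read 13.16, 12.89, 13.05 and 12.93 in controls and 13.04, 12.83, 12.84 and 12.76 in Mogat1 ASO mice. Mogat1 ASO replicate 1 lay within the range of the controls, and the other treated mice lay below all of them. The difference of -0.14 had an interval of -0.34 to 0.05 (adjusted p = 0.332). Mrps34, another protein particular to mitochondria, read 12.55, 12.59, 12.50 and 12.43 in controls and 12.59, 12.45, 12.72 and 12.59 in Mogat1 ASO mice. Its difference was 0.08 (interval -0.10 to 0.25, adjusted p = 0.592), and the sign turned to -0.0179 with arrays scaled to the same median. For Mrpl12, whose bacterial counterpart forms the stalk that binds translation factors and which is also reported to bind the mitochondrial RNA polymerase, the difference was 0.03 (interval -0.15 to 0.20), and it turned to -0.0709 under that scaling. Mrpl17, Mrpl38 and Mrpl28 differed by -0.03, 0.0099 and 0.13, with adjusted p-values of 0.902, 0.948 and 0.276. The interval of each of these 6 genes lay within -0.34 and 0.30 on the log2 scale.

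Where the array carried several probes for a gene, they served as a second measurement of it. Of the 22 genes with at least 2 tested probes, 12 had the same sign on all of them and 10 had mixed signs, and the median range between a gene's probes was 0.12 on the log2 scale. Counted by probe, 5 of the 100 tested probes passed the threshold (5%), 3 higher and 2 lower, against 12.6% of all probes tested (6.68% higher and 5.93% lower). They were the probes of Mrpl52, Mrps22 and Mrps23 above, the dimmer probe of Mrpl9, and the dimmer probe of Mrps26. No gene with several probes passed on all of them. The groups did not overlap for 6 member probes that were higher and 4 that were lower, while this held for 9.53% and 8.56% of all probes tested, 18.1% together.

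The 2 probes of Mrps26, which encodes another mitochondria-specific protein of the small subunit, differed most among genes with a call. The dimmer probe (ILMN_3005827) read 7.77, 8.11, 8.12 and 8.10 in controls and 8.30, 8.64, 8.51 and 8.75 in Mogat1 ASO mice, a rise of 0.53 with no overlap (SE 0.13, adjusted p = 0.0194). The brighter probe read 9.59, 9.70, 9.67 and 9.62 in controls and 9.75, 9.68, 9.77 and 9.75 in Mogat1 ASO mice, a difference of 0.09 (SE 0.08, adjusted p = 0.481). The 95% interval of the dimmer probe, 0.25 to 0.80, and that of the brighter one, -0.08 to 0.26, barely met. Which transcripts of Mrps26 each probe meets is not recorded in the files or labels used here.

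Mrpl15, the counterpart of bacterial protein L15, had 6 tested probes, the most of any member. Their differences ran from -0.43 to 0.20, and none passed. The 2 brightest probes, at group means of 11.2 to 11.3, had differences of 0.05 and 0.04, while the dimmest, at 6.32 in controls and 5.89 in Mogat1 ASO mice, gave the lowest value (SE 0.14, adjusted p = 0.0738). That dimmest probe passed without Mogat1 ASO replicate 1 (-0.49, adjusted p = 0.0453), without control replicate 4 (-0.53, adjusted p = 0.0444) and with array weights (-0.49, adjusted p = 0.0285). A second Mrpl38 probe also stood above its brighter partner, at 0.33 (adjusted p = 0.163) against 0.0099. The 3 tested probes of Mrps10 were all lower, by 0.20 to 0.30, and none passed. The RefSeq gene table lists pseudogenes of Mrpl48, Mrpl23 and Mrpl27, so probes of these genes may meet a near copy and their values are uncertain.

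**Figure D3:**
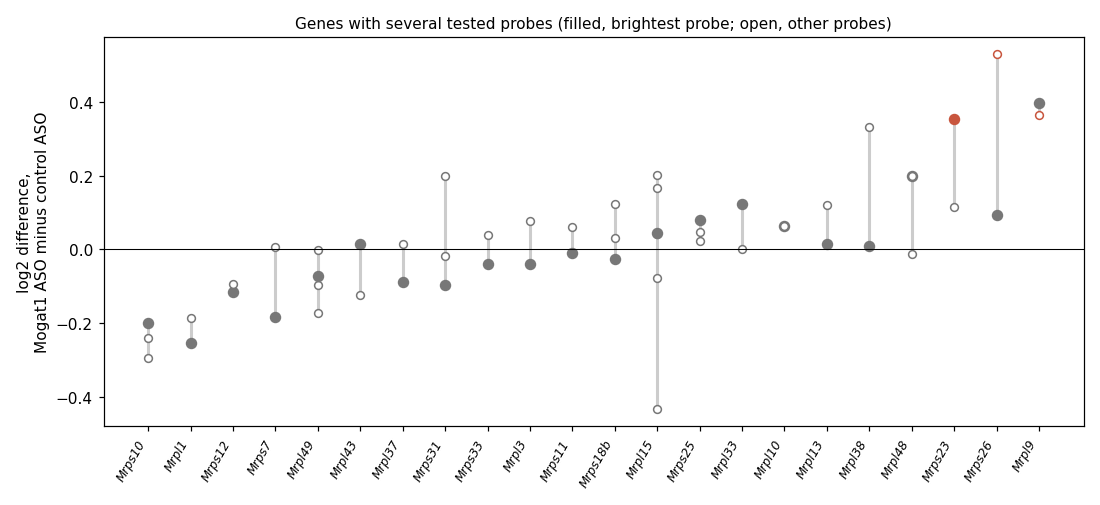
Difference in normalised log2 level (Mogat1 ASO minus control ASO) of each tested probe for the 22 genes with at least 2 tested probes. Filled points are the brightest probe, open points the others, red marks a probe past the threshold, and grey lines join the probes of a gene. Mrpl15 has the widest range (0.63), and 1 probe each of Mrps23, Mrps26 and Mrpl9 passed.

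For 6 members no probe was tested: Mrpl19, Mrpl21, Mrpl32, Mrpl39, Mrpl45 and Mrps14. The probes of the first 5 were detected on no array, and that of Mrps14 on 2 control arrays and no Mogat1 ASO array. In all, 25 member probes were not tested, 17 of which belong to genes with another tested probe, and 21 were detected on no array. Of the tested probes, 99 were detected on all 8 arrays, so the choice of tested probes did not hang on 1 group.

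Array by array, the mean deviation of the 67 genes from their means over all arrays was 0.03, -0.01, -0.0066 and -0.0013 on the control arrays and 0.05, 0.02, -0.01 and -0.06 on the Mogat1 ASO arrays (log2). The groups overlapped, and the highest and the lowest array were both from the Mogat1 ASO group. Mogat1 ASO replicate 1 held the highest level of the 8 arrays for 17 genes, and Mogat1 ASO replicate 4 the lowest for 17 genes. For Mrps genes alone the 4 Mogat1 ASO means were 0.03, 0.0061, -0.05 and -0.08 and the control means 0.07, 0.0053, 0.02 and 0.0024. The 2 lowest Mrps means were those of Mogat1 ASO replicates 3 and 4. The array means of the members thus showed no separation of the groups.

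**Figure D4:**
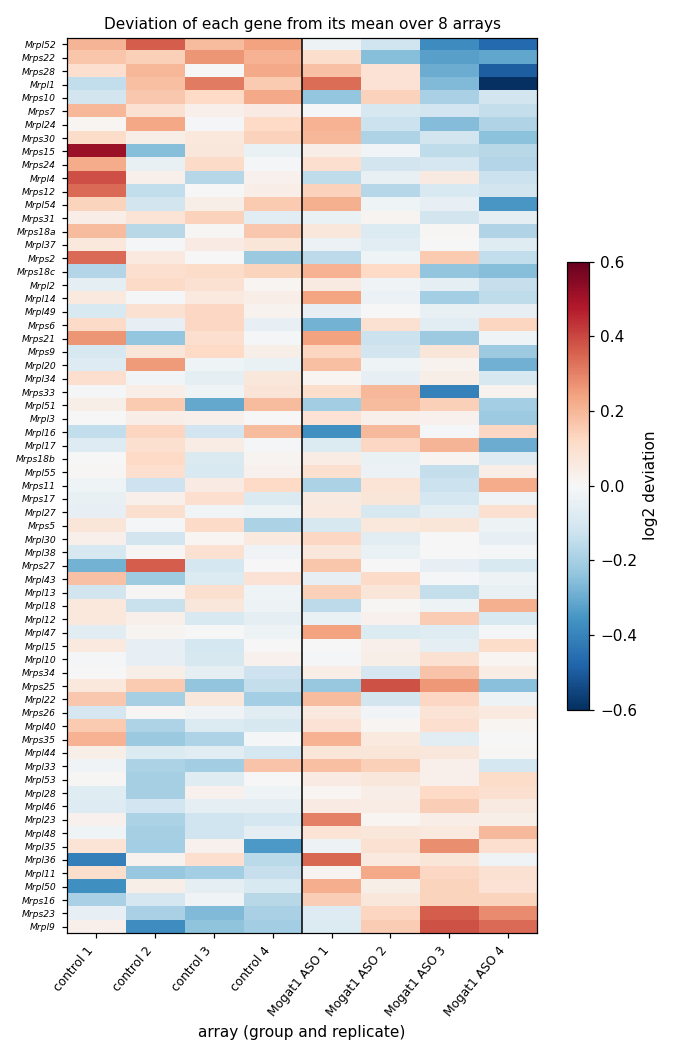
Deviation of each of the 67 genes (rows, in the order of their difference) from its mean over the 8 arrays (columns), on the log2 scale, red for higher and blue for lower, with a line between control ASO and Mogat1 ASO arrays. Mrpl52 and Mrps22 in the top rows are lower, and Mrps23 near the bottom is higher, past the threshold, and no other row passed.

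The other genes that mitochondrial translation needs were described from lists that followed the same rule. Of 7 listed mitochondrial ribosomal proteins under other symbols, none passed. In this list 2 genes had a positive and 5 a negative difference. Mrpl57, listed as Mrp63, had the largest, 0.38 (adjusted p = 0.0712), at dim levels of 6.25 in controls and 6.62 in Mogat1 ASO mice. Chchd1 differed by -0.31 (adjusted p = 0.0831) and Dap3, a GTP-binding protein of the small subunit, by -0.08 (adjusted p = 0.563). The other tested Dap3 probes ran from -0.32 (adjusted p = 0.123) to 0.009 (adjusted p = 0.963). Of the 16 tested translation factors (17 on the array), 1 rose and 1 fell. The gene that fell was Gfm2, which the array lists under the clone name A930009M04Rik and which encodes the factor that releases the ribosome after translation has ended. Its brighter probe read 9.65, 9.61, 9.64 and 9.53 in controls and 8.72, 8.74, 8.44 and 8.35 in Mogat1 ASO mice. The fall of Gfm2 was 2.06-fold with no overlap, or -1.04 on the log2 scale (SE 0.11, adjusted p = 0.000365), and its second probe gave -1.02 (adjusted p = 0.000595). Tufm, the elongation factor that brings aminoacyl-tRNA to the ribosome, rose by 0.24 (SE 0.07, adjusted p = 0.0392) with no overlap, from 12.70, 12.68, 12.72 and 12.70 to 12.9996, 12.99, 12.92 and 12.86. The Gfm2 call held with each array left out (adjusted p up to 0.00240), while that of Tufm was lost without any array other than Mogat1 ASO replicate 1 (adjusted p of 0.0530 to 0.102) and with arrays scaled to the same median (adjusted p = 0.372). Without Mogat1 ASO replicate 1, Chchd1 passed (-0.39, adjusted p = 0.0184) and 5 translation factors did, 3 higher and 2 lower.

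Of 20 tested mitochondrial aminoacyl-tRNA synthetases and amidotransferase genes (22 on the array), 1 fell, Fars2, which charges phenylalanine tRNA (1.5-fold, -0.59 on the log2 scale, SE 0.13, adjusted p = 0.0132). Gars, which serves both compartments, differed by 0.14 (adjusted p = 0.276). None of the 21 tested genes of ribosome assembly and rRNA modification passed, among them Grsf1 (-0.25, adjusted p = 0.163) and Rbfa (0.01, adjusted p = 0.950). None of the 12 tested genes of mitochondrial DNA and transcription passed, among them Tefm (0.20, adjusted p = 0.143) and the RNA polymerase Polrmt (0.01, adjusted p = 0.955). Of 7 tested regulators of mitochondrial biogenesis (9 on the array) none passed either, with Ppargc1b at 0.51 (interval -0.01 to 1.02, adjusted p = 0.189) and Esrra at 0.0008. A second, dimmer Esrra probe differed by 0.35 (adjusted p = 0.1165) and did not pass. Yy1 and Myc had no tested probe. Of 18 tested import genes 1 fell, Timm8a1, a chaperone of the intermembrane space (log2 difference -0.40, SE 0.10, adjusted p = 0.0239), while Timm8b differed by 0.12 (adjusted p = 0.568). The Timm8a1 call was lost without control replicate 2 or 3 or Mogat1 ASO replicate 2, 3 or 4 (adjusted p of 0.0538 to 0.0779). Without Mogat1 ASO replicate 1, 2 synthetase genes, 2 assembly genes (Grsf1 among them), 1 regulator and 2 import genes passed, all of them lower, and Ppargc1b passed without control replicate 1 (0.72, adjusted p = 0.0438).

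The respiratory chain and ATP synthase, which combine nuclear-encoded subunits with those made by the mitochondrial ribosome, and the ribosome of the cytosol were set beside the members. The list of nuclear-encoded genes of the respiratory chain and ATP synthase was taken by symbol, so it may hold genes that are not subunits. Of its 69 tested genes (78 on the array), 2 rose and 1 fell, 4.35% of them. Cox7a2l, which entered through a symbol that begins with Cox7a, rose by 0.41 (adjusted p = 0.00947), with a second probe at 0.50. Atp5g2 rose by 0.39 (adjusted p = 0.00805), and Cox6c fell by 0.44 (adjusted p = 0.0405). Without Mogat1 ASO replicate 1, 5 genes of this list rose and 2 fell. The Cox6c call was lost without any array other than that one (adjusted p of 0.0604 to 0.117). The median of this list was 0.0355, and -0.0119 with arrays scaled to the same median, where the calls of Cox7a2l and Atp5g2 were lost (adjusted p = 0.121 and 0.134). The list of cytosolic ribosomal proteins was taken by symbol (Rpl or Rps and a digit, or Rplp), and 62 of its 71 genes were tested. It includes Rps19bp1, which encodes a binding partner of a ribosomal protein, and Rps23rg1, a retrogene, and neither passed (0.11 and -0.17). Of the 62 genes 26 rose and none fell, 41.9% of them, with a median of 0.23 and 56 positive differences. Rps6 rose by 0.47 (SE 0.09, adjusted p = 0.00561), Rpl22 by 0.54 (SE 0.11, adjusted p = 0.0111) and Rps15a by 0.82 (SE 0.17, adjusted p = 0.00983). With arrays scaled to the same median, 5 genes of that list passed, with a median of 0.20 and 53 positive differences, so the direction of the list was kept and most calls were not. Its count of calls was also 12 without control replicate 2, 13 without control replicate 3 or Mogat1 ASO replicate 3, and 17 without control or Mogat1 ASO replicate 4. Cytosolic ribosomal proteins have many pseudogenes, so values of single genes are uncertain, and the difference between the 2 kinds of ribosomal protein was not tested.

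**Figure D5:**
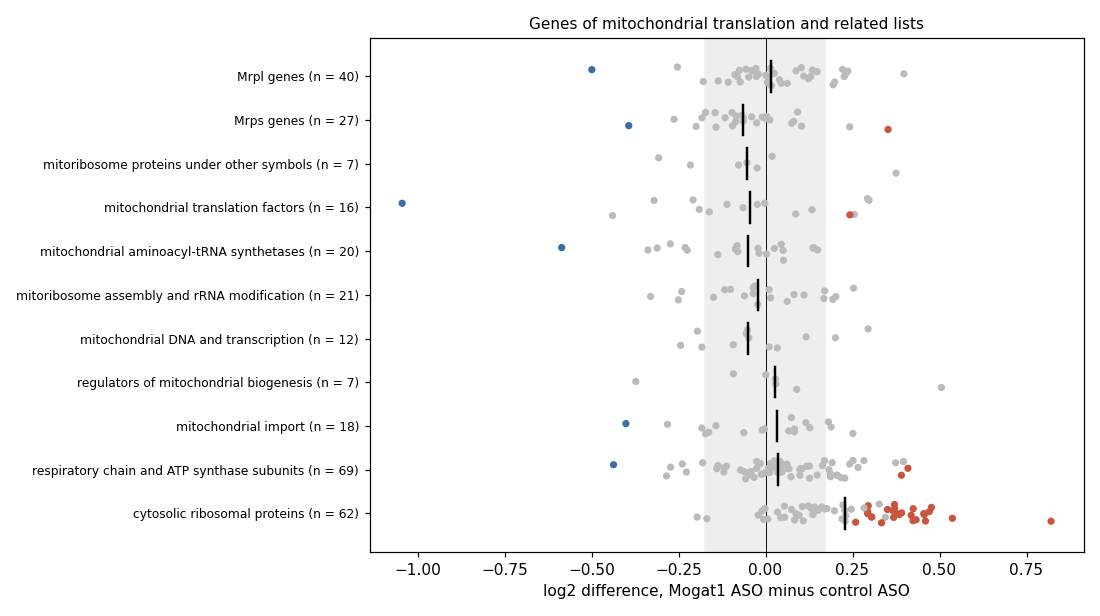
Difference in normalised log2 level (Mogat1 ASO minus control ASO) of each tested gene in 11 lists, each gene by its brightest tested probe. Red points rose and blue points fell past the threshold, black ticks are the list medians, and the grey band holds the middle 50% of all 11687 genes tested. The median of the cytosolic ribosomal proteins (0.23) lies to the right of the band, while those of the Mrpl genes (0.0145) and the Mrps genes (-0.06) lie within it.

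Markers of liver cell types were read on the same arrays. Of 9 hepatocyte markers 7 were tested and none passed (the probes of Alb and Tat were too dim), and their summed normalised signal was 187700 to 207100 on control and 189100 to 199200 on Mogat1 ASO arrays. Of 9 macrophage markers 8 were tested and Lyz2 rose, and the sum of the list was 8425 to 10270 in controls and 9623 to 14780 in Mogat1 ASO mice. All 6 endothelial markers were tested, of which Lyve1 rose and Stab2 fell (sums of 11720 to 13440 and 11760 to 12360). Of 6 stellate cell markers 4 were tested and Reln fell (sums of 3098 to 3901 and 2208 to 2964), while Col1a1 and Pdgfrb were too dim to test. None of 3 tested lymphocyte, 3 neutrophil and 3 cholangiocyte markers passed. The part of cell composition in the 3 calls among the mitochondrial ribosomal protein genes was not tested.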

How the data were processed

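Arrays of 8 livers, 4 a group, were used. Per the file headers, the deposited non-normalized values are a bead intensity and a detection p-value per probe, and the deposited series matrix gives an intensity already processed by the authors, used only as an alternative. Their software is not named in the labels or headers. The deposited detection p-value was taken in its usual sense, as the fraction of negative control beads brighter than or equal to the probe.

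Intensities went through neqc of limma 3.58.1 (R 4.3.3, package data.table, version 1.17.8): normexp background correction with negative controls inferred from the detection p-values, quantile normalisation, an offset of 16 and log2. Tested probes (p under 0.05 on 4 or more arrays) were fitted with lmFit and eBayes with a variance trend. P-values were two-sided and adjusted by Benjamini-Hochberg over the 16487 probes, with a threshold of 0.05. The tested probe of highest mean represented a gene. Folds are 2 to the power of the log2 difference, and SE and 95% intervals come from the fit. An array has no read depth, so precision rests on the number of mice. Only the fit was tested on simulated data, drawn from the normalised means and SDs of the tested probes. Background correction, normalisation and the filter on dim probes were not tested that way.

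Symbols were brought up to date, names only, with RefSeq genes of GRCm38.p6: of the probes, 27760 were already current, 7994 changed, 187 were ambiguous and 9340 found no match. Of the symbols outside the member rule, 6 have a current name that begins with Mrpl or Mrps and a digit. Clone names among them kept the deposited name, so they entered neither the members nor the list of proteins under other symbols. Promoter windows were searched in Python 3.11.15 and figures drawn with matplotlib 3.10.9. Columns of other samples numbered 0. Members, gene lists and tests were chosen with earlier results of these data known. By rule the text names all members past the threshold, the 6 brightest, members whose probes disagreed in a call, and in each related list up to 4 genes past the threshold, filled to 2 with the brightest; 1 gene that the rule names is not reported here. Per-array values are given for the 4 largest differences each way and the 2 brightest members that did not pass. Other members, singled out for groups without overlap or for several probes, were chosen after their values were seen. So were Mrpl11, Mrps30 and, among the related genes, Mrpl57. Alternatives were another background correction, offset, scaling, filter, variance model, array weights, a replicate block, averaged probes, the processed intensity, and leaving out each array.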

Additional observations from a re-analysis of the deposited data

Results flagged for a closer look

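In 64 groups of 4 arrays (both groups of the named genes), the highest or lowest array was set against the other 3, and 4 groups held an array whose gap to the nearest other, as a share of the whole range, exceeded Dixon's 95% critical value. By chance about 1 in 20 groups would. Among the mitochondrial ribosomal protein genes this was Mrps22, for which Mogat1 ASO replicate 1 read 10.188 (log2) and the other Mogat1 ASO arrays 9.76 to 9.83. The same array stood out for Fars2, at 10.9713 against 10.50 to 10.55. Control replicate 1 stood out for Cox6c, at 11.5659 against 11.21 to 11.27, and control replicate 4 for Polrmt, at 10.2038 against 10.38 to 10.42.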

How the results depend on the processing

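The 5 member probes called (3 higher, 2 lower) became 2, both lower, with arrays scaled to the same median, 2 (1 higher, 1 lower) without a filter on dim probes or without a variance trend, 9 (6 higher, 3 lower) with array weights, and 0 to 8 with an array left out. The 3 member genes called became 1 (Mrpl52) without a filter or a variance trend, 6 with array weights, 5 with a gene's probes averaged, and 0 to 5 with an array left out. Array weights added Mrpl9, Mrpl11 and Mrps16. Averaged probes added Mrpl9, Mrps16 and Mrps26, and Mrps23 was lost. No member gene was called without control replicate 2 or Mogat1 ASO replicate 3, and 5 were without Mogat1 ASO replicate 1. Of all probes, 1251 were called with the same-median scaling and 3561 with array weights, and 1149 to 3098 with an array left out. Of the genes of the related lists, 33 were called (29 higher, 4 lower), but 9 with that scaling (5 higher, 4 lower), 20 without a variance trend, 56 with array weights and 17 to 42 with an array left out. The median of the members moved to -0.064 under the scaling and lay between -0.0242 and 0.0134 with an array left out. The cause of these changes was not tested, except that leaving out an array leaves fewer samples. Samples of the 2 groups share replicate numbers. Same-numbered samples of replicates 2, 3 and 4 did not deviate together (r of 0.0695, -0.0244 and -0.0083). For replicate 1 r was 0.226, and pairs of unlike number ran from -0.3113 to 0.2837. Of 4 controls, 2 correlated best with their own number. On the second principal component the replicate 1 arrays read 13.9 (control) and 34.4 (Mogat1 ASO), and the others -15.7 to -0.0833. What the replicate 1 arrays share was not tested. With the replicate number as a block, 3 member probes and 2 member genes were called, Mrpl52 and Mrps22, against 1967 probes in all.

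Genes near 0 changed sign. Under the scaling these were Mrpl12 (-0.0709), Mrpl38 (-0.062), Mrps34 (-0.0179), Esrra (-0.039), Polrmt (-0.0509) and Rbfa (-0.061), and with array weights Mrpl38 (-0.0158), Esrra (-0.0098) and Rbfa (-0.0035). With an array left out, Mrpl38 ran from -0.0203 to 0.0421, Rbfa from -0.0317 to 0.0422, Mrpl17 from -0.0987 to 0.0688, Mrpl12 from -0.0219 to 0.0592, Esrra from -0.0499 to 0.059 and Polrmt from -0.0383 to 0.0589. The slide as a block was not run, since the files name no slide.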
